A study of Homo sapiens with 18 samples.

Results

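INHBA and the other genes of the TGF-beta and activin pathway were examined in WT and SP100 knockout cultures of NIKS, a human keratinocyte line that the labels call normal and immortalized. The set was given as 8 genes, namely INHBA, FST, TGFB1, TGFB2, TGFBR1, TGFBR2, SMAD3 and SMAD7. The deposited table has a row for 7 of them among its 16472 genes, and all 7 passed the filter on low values that left 13280 genes for testing. TGFB2 was not analysed here. INHBA was chosen by its RPKM values, which were known to differ between the untreated lines and in their change at 12 h of interferon, so its values in those comparisons and in any comparison with 0 h are given as a description, with no test. The other members were listed by pathway.

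Each of 6 groups had 3 biological replicates, 18 libraries in all. Wild-type (WT) and SP100 knockout (KO) cells, all grown on lethally irradiated J2/3T3 mouse fibroblasts, were untreated (0 h) or stimulated with human interferon alpha 2a at 25 ng/mL for 12 or 48 h. The table's column names carry one prefix per genotype (Vec2 and KO5), so SP100 status cannot be told apart from any other difference between the lines. Interferon and time in culture cannot be told apart, since untreated cells were analysed at 0 h alone. The question put to the data was whether the pathway differs between the lines as INHBA does.

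SP100 itself was lower in KO than in WT in every library of the same time, with 14.22 to 15.97 against 27.9 to 31.91 RPKM when untreated, but its transcript was not lost. Keratinocyte markers were abundant throughout, and the summed level of 8 of 8 listed markers was 18908 to 22805 RPKM. Relative sequencing depth spanned 0.847 to 1.266 of the mean, and replicates correlated across genes with r of 0.985 to 0.989.

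Activin A is a dimer of the inhibin beta A chain, the product of INHBA, and the TGF-beta ligands are its relatives. Both bind pairs of type I and type II serine/threonine kinase receptors, which phosphorylate SMAD2 and SMAD3. These join SMAD4 and regulate genes in the nucleus. Follistatin (FST) binds activin and blocks it, and SMAD7 is an inhibitory SMAD that is itself a target of the pathway. In keratinocytes TGF-beta is known to restrain proliferation, and activin is known for its part in wound repair.

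The upstream sequences of INHBA and FST, the members with the widest range of levels relative to their lowest library, are given as the reference sequence, 5′ to 3′, ending at the base before the start site in RefSeq. They come from RefSeq, build GRCh38.p14, at chr7:41703091-41703340 on the minus strand for INHBA and chr5:53480379-53480628 on the plus strand for FST. Capitals mark matches to the motifs searched on both strands.
INHBA: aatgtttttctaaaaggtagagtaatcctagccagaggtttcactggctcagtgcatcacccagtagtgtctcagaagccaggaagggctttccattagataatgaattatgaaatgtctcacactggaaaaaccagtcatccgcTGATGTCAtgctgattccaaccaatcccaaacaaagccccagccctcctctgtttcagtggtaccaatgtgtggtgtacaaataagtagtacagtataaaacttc
FST: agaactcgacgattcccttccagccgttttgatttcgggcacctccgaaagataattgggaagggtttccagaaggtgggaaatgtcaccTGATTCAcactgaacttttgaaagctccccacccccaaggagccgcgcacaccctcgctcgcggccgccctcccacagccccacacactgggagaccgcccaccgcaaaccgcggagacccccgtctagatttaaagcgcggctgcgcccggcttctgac
The motifs were GTCTAGAC (the palindromic SMAD box), CAGACA (a single SMAD element with flanking bases), TGANTCA (AP-1), TGANGTCA (the cyclic AMP response element and near forms, added after the INHBA sequence had been read) and the core of the interferon-stimulated response element. INHBA held 1 TGANGTCA match, a form found in 7.09% of 27303 promoters of this length. FST held 1 TGANTCA match, found in 6.6% of them. Neither window held GTCTAGAC, CAGACA or the interferon-stimulated element core, which occur in 0.176%, 13.6% and 3.07% of promoters. All 8 genes matched the promoter table, and the interferon-stimulated element core was in 0 of the 8 windows.

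INHBA was lower in the untreated KO line and highest in both lines at 48 h of interferon. In untreated WT cells it stood at 11.07, 13.19 and 12.43 RPKM (a read density corrected for gene length and library size). The untreated KO libraries gave 7.45, 6.96 and 7.99 RPKM. The groups did not overlap, and the log2 difference was -0.64, on the log2(RPKM + 1) scale that is used for every change here and that understates the change of low genes. After 12 h of interferon INHBA measured 7.56, 8.41 and 9.12 RPKM in WT, and KO libraries gave 8.47, 7.71 and 7.95 RPKM. WT had come down to the KO level with log2 changes from 0 h of -0.50 in WT and 0.10 in KO. With median-of-ratios scaling the KO change was 0.19.

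At 48 h INHBA was at 15.2, 15.3 and 15.5 RPKM in WT and at 12.85, 12.28 and 13.57 RPKM in KO. These groups did not overlap, but the difference of -0.23 (SE 0.073) did not pass the threshold of 0.05 over all genes (limma, adjusted p 0.0947), nor did that of -0.05 at 12 h (adjusted p 0.811). Between 12 and 48 h INHBA rose by 0.81 in WT (limma, adjusted p 7.52e-07) and by 0.62 in KO (adjusted p 7.64e-06). All 3 libraries at 48 h were above all 3 at 12 h in each line. The median change over all genes tested was 0.074 in WT and 0.079 in KO. The 12 h libraries took part in the choice of INHBA. Its tests at 12 h and from 12 to 48 h are therefore not independent of that choice. In order of mean level the groups were WT 48 h (15.3 ± 0.153 RPKM, SD, n = 3), KO 48 h (12.9 ± 0.646), WT 0 h (12.2 ± 1.07), WT 12 h (8.36 ± 0.781), KO 12 h (8.04 ± 0.389) and KO 0 h (7.47 ± 0.515). Ranges of neighbours overlapped between KO 48 h and WT 0 h, between WT 12 h and KO 12 h, and between KO 12 h and KO 0 h. An antisense transcript, INHBA-AS1, overlaps INHBA in the RefSeq gene table; the libraries were stranded per the labels, but whether counting used the strand is not given in the sources used here.

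**Figure D1:**
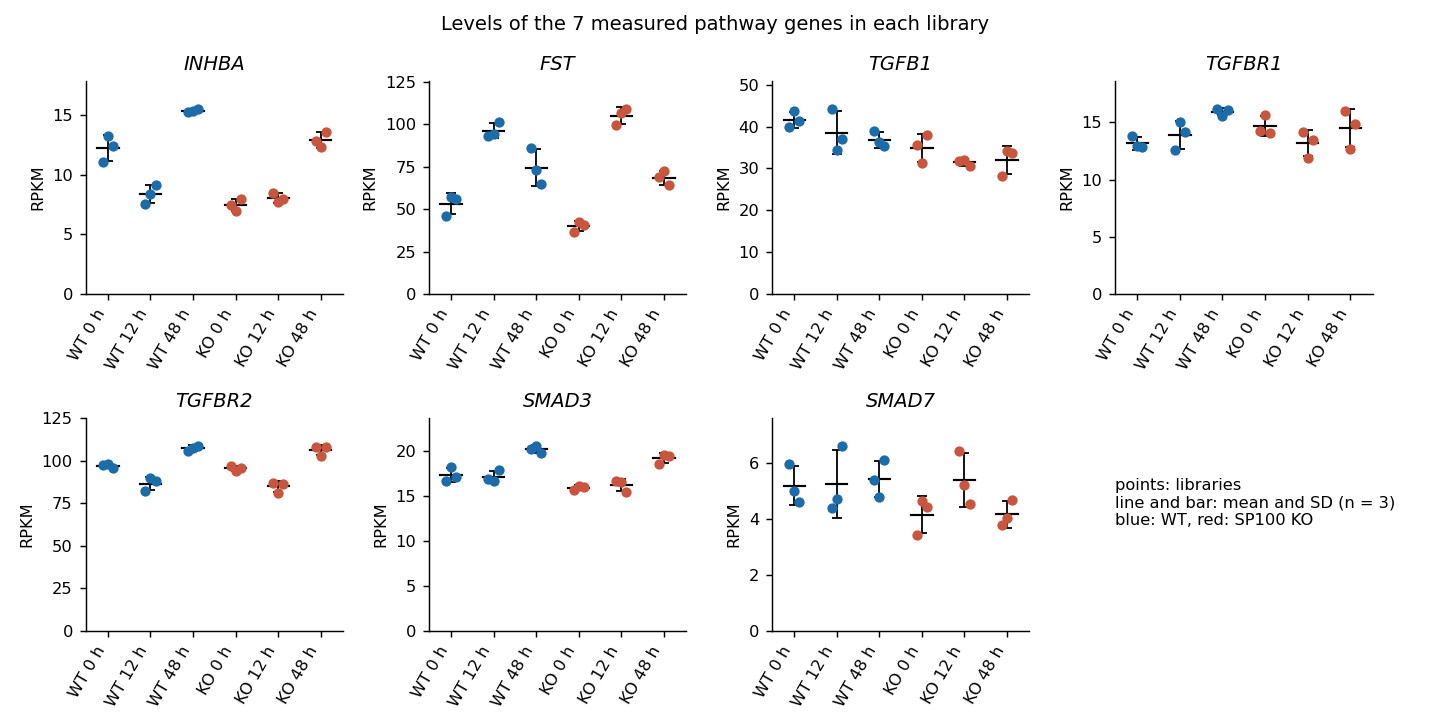
RPKM of the 7 measured members (y axes, from 0) in each library by line and hours of interferon (x axes); points are libraries, lines and bars the mean and SD of 3. INHBA was lowest in untreated KO cells (6.96 to 7.99 RPKM) and highest in WT at 48 h (15.2 to 15.5), whereas FST was highest at 12 h in both lines.

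FST, the secreted activin inhibitor, was the other member that differed between the untreated lines. It was at 46.25, 57.35 and 56.11 RPKM in untreated WT and at 36.85, 42.8 and 40.53 RPKM in untreated KO. All KO libraries were below all WT libraries, and the difference of -0.40 (SE 0.095) passed the threshold (limma, adjusted p 0.0231). It was 1 of 6 members called at 0 h with INHBA left aside, while 4.89% of all genes tested were called in that comparison, 2.82% higher and 2.07% lower in KO. The FST call rested on single libraries: the adjusted p was 0.113 without WT replicate 2 (-0.34), 0.0999 without WT replicate 3 (-0.36) and 0.106 without KO replicate 1 (-0.34), and it was 0.0711 in a fit on the 6 untreated libraries alone.

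FST moved with interferon in both lines, and in the opposite sense to INHBA between 12 and 48 h. At 12 h it was at 92.98, 94.55 and 101.48 RPKM in WT and at 99.5, 106.72 and 109.21 RPKM in KO. These levels lay above every untreated library, with rises of 0.85 in WT (limma, adjusted p 3.41e-06) and 1.37 in KO (adjusted p 1.19e-08). At 48 h FST was at 86.31, 72.87 and 64.69 RPKM in WT and 68.8, 72.64 and 64.17 RPKM in KO, a fall from 12 h of -0.37 in WT (adjusted p 0.00613) and -0.61 in KO (adjusted p 0.000104). It still exceeded the untreated level, by 0.48 in WT (adjusted p 0.00298) and 0.76 in KO (adjusted p 3.50e-05). The rise at 12 h was larger in KO by 0.52 (SE 0.135), which did not pass the threshold for a genotype by interferon interaction (limma, adjusted p 0.387). KO and WT did not differ past the threshold at 12 h (0.12, adjusted p 0.562) or 48 h (-0.11, adjusted p 0.635).

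The level of INHBA relative to FST, both per length, was lowest at 12 h. INHBA was 0.239, 0.230 and 0.222 of FST in the untreated WT libraries and 0.202, 0.163 and 0.197 in the untreated KO libraries. At 12 h the ratio was 0.081, 0.089 and 0.090 in WT and 0.085, 0.072 and 0.073 in KO, below every library of the other times. At 48 h it was 0.176, 0.210 and 0.240 in WT and 0.187, 0.169 and 0.211 in KO. The untreated lines thus stood at means of 0.230 ± 0.0089 and 0.187 ± 0.0215 (SD, n = 3) in this ratio. The untreated and 12 h values of INHBA took part in its choice, so the ratios are a description that is not independent of that choice. These are transcript levels, and neither protein was measured.

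**Figure D2:**
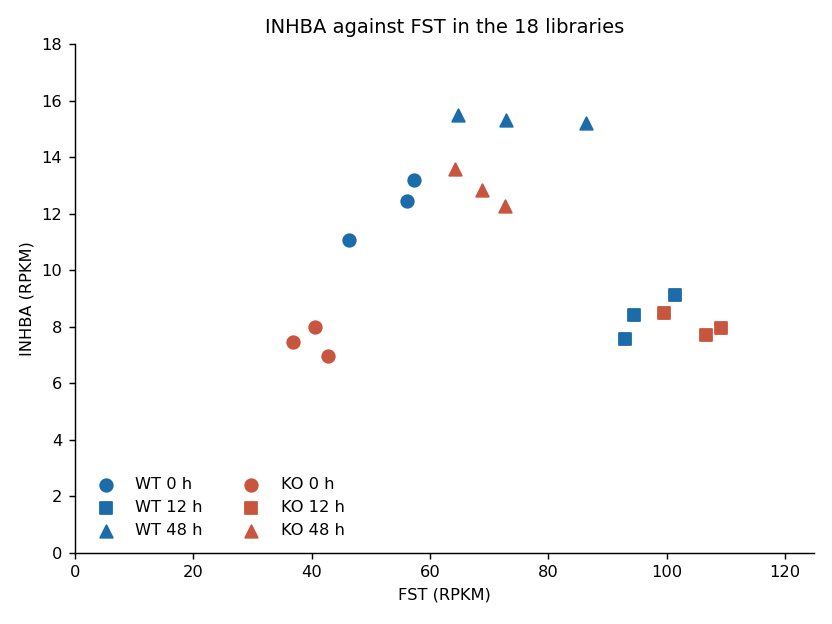
INHBA (y axis, RPKM) against FST (x axis, RPKM) in the 18 libraries, coloured by line and shaped by hours of interferon. The 12 h libraries of both lines lie together at the right and low, at ratios of 0.072 to 0.090, and the untreated KO libraries lie below and to the left of the untreated WT libraries.

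TGFB1, a TGF-beta ligand, was lower on average in KO at every time without passing the threshold. It was at 39.93, 43.71 and 41.33 RPKM in untreated WT and 35.6, 31.23 and 37.88 RPKM in untreated KO. These groups did not overlap, and the difference was -0.25 (95% interval -0.44 to -0.06; limma, adjusted p 0.14). At 12 h the difference was -0.28 (WT 34.41 to 44.22 RPKM, KO 30.47 to 32.08 RPKM; adjusted p 0.114), again with no overlap. At 48 h it was -0.20 (WT 35.23 to 39.01, KO 28.08 to 34.19 RPKM; adjusted p 0.272), also with no overlap. Groups of 3 libraries can lie apart by chance, and the share of all genes without overlap was not counted for any comparison here. TGFB1 did not change past the threshold with interferon in either line, with changes between -0.17 and 0.02 in the 6 comparisons of times.

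The receptors did not differ past the threshold between the lines. TGFBR2, the type II TGF-beta receptor and one of the 2 most abundant members, was at 95.86 to 98.26 RPKM in untreated WT and 94.17 to 96.99 RPKM in untreated KO. Its differences were -0.02 at 0 h, -0.03 at 12 h and -0.01 at 48 h, with 95% intervals that together span -0.11 to 0.07, so a difference beyond those bounds lies outside the intervals. TGFBR1, the type I receptor, was at 12.8 to 13.81 RPKM in untreated WT and 14.04 to 15.63 RPKM in untreated KO, which did not overlap (0.14, limma, adjusted p 0.389). At 12 and 48 h its differences were -0.07 (adjusted p 0.715) and -0.13 (adjusted p 0.458).

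TGFBR2 followed time in interferon alike in the 2 lines. It was at 82.22 to 89.69 RPKM at 12 h and 105.58 to 108.99 RPKM at 48 h in WT, and at 81.32 to 86.95 and 102.9 to 108.38 RPKM in KO. From 12 to 48 h the median change over all genes tested was 0.074 in WT and 0.079 in KO. TGFBR2 rose over that time by 0.31 in WT (limma, adjusted p 1.41e-05) and 0.32 in KO (adjusted p 6.37e-06). Its fall from 0 to 12 h, -0.16 in WT (adjusted p 0.00204) and -0.17 in KO (adjusted p 0.00150), was -0.07 (adjusted p 0.157) and -0.06 (adjusted p 0.199) with median-of-ratios scaling. Its rise from 0 to 48 h was 0.14 in WT (adjusted p 0.0185) and 0.15 in KO (adjusted p 0.0117). The WT call was lost without replicates 1 or 3 at 0 h (adjusted p 0.0505 and 0.0677) or replicates 2 or 3 at 48 h (0.0527 and 0.0672), and the KO call in the fit on the 6 libraries compared (0.15, adjusted p 0.0587). TGFBR1 was called higher at 48 h than at 0 h in WT (0.26, adjusted p 0.0488), a call lost without any single one of the 6 libraries (adjusted p 0.0635 to 0.131), and changed by -0.02 in KO (adjusted p 0.920). Its change from 12 to 48 h in KO was 0.13 (adjusted p 0.232), and 0.21 (adjusted p 0.0490) without KO replicate 2 at 48 h.

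SMAD3, which carries the signal of both TGF-beta and activin receptors, was highest at 48 h. It was at 16.6 to 18.15 RPKM in untreated WT, 16.59 to 17.87 RPKM at 12 h and 19.71 to 20.58 RPKM at 48 h. In KO it was at 15.62 to 16.12, 15.43 to 16.65 and 18.54 to 19.58 RPKM. In both lines the 48 h libraries lay above all others of that line. From 0 to 48 h SMAD3 rose by 0.21 in WT (limma, adjusted p 0.00669) and 0.26 in KO (adjusted p 0.00150). Its change from 0 to 12 h in KO was 0.03 (adjusted p 0.689), and 0.13 (adjusted p 0.0362) with median-of-ratios scaling. The KO and WT levels differed by -0.11 at 0 h (adjusted p 0.215), with no overlap of the groups. They differed by -0.07 at 12 h, where the groups overlapped, and by -0.07 at 48 h, where they did not.

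SMAD7, the inhibitory SMAD, was the least abundant member and the one with the widest errors. It was at 5.96, 4.99 and 4.62 RPKM in untreated WT and 3.42, 4.64 and 4.42 RPKM in untreated KO, which overlapped (-0.26, 95% interval -0.57 to 0.04; limma, adjusted p 0.362). At 12 h the groups overlapped (4.38 to 6.63 and 4.55 to 6.45 RPKM), and at 48 h they did not (4.79 to 6.1 in WT, 3.78 to 4.69 RPKM in KO; -0.31, adjusted p 0.293). No change of SMAD7 between times passed the threshold in either line; the change from 0 to 12 h in KO was 0.31 (adjusted p 0.0906), 0.40 (adjusted p 0.0319) with median-of-ratios scaling and 0.41 (adjusted p 0.0480) without KO replicate 3 at 12 h. From 12 to 48 h it was -0.30 in KO (adjusted p 0.108), and -0.38 (adjusted p 0.0449) with median-of-ratios scaling.

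**Figure D3:**
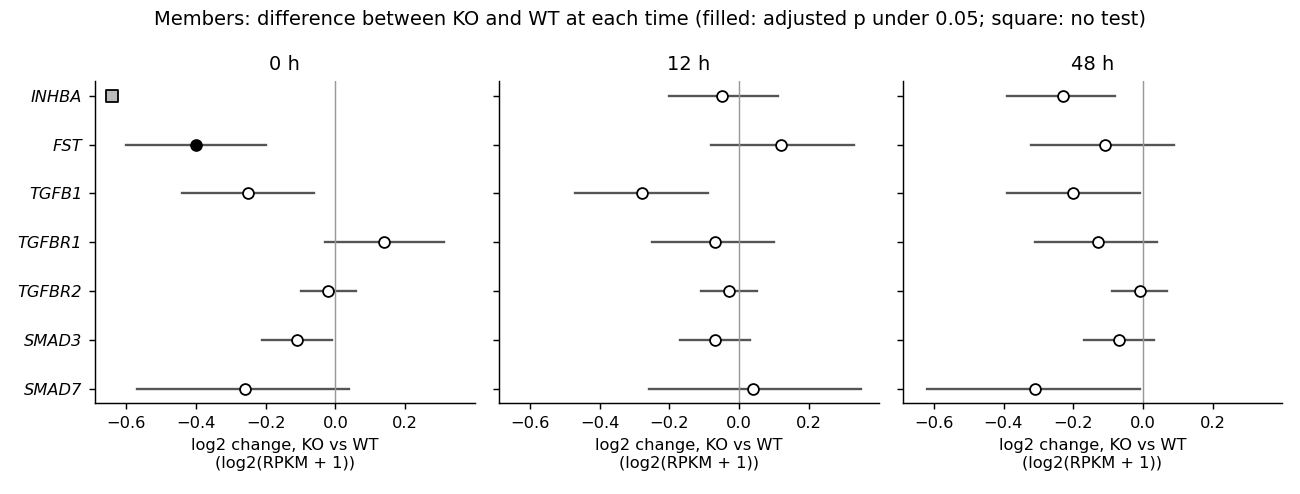
Difference between KO and WT (x axis, log2(RPKM + 1)) of each member at 0, 12 and 48 h; points are estimates, lines 95% intervals, filled points pass an adjusted p of 0.05, and the square marks INHBA at 0 h (-0.64), which has no test. FST at 0 h (-0.40) is the one filled point.

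Among all members, the differences between KO and WT were called for 0 of 7 at 12 h and 0 of 7 at 48 h (limma; 1 and 3 at an unadjusted p under 0.05), while 3.62% of all genes tested were called at 12 h (1.60% higher and 2.02% lower in KO) and 4.19% at 48 h (2.03% higher and 2.16% lower). The median difference was -0.18 at 0 h over the 6 members other than INHBA, -0.05 at 12 h and -0.13 at 48 h, against 0.020, 0.010 and 0.010 over all genes. With interferon, 2 of 6 members were called from 0 to 12 h in each line, FST higher and TGFBR2 lower. With median-of-ratios scaling FST alone was called in WT, and FST, SMAD3 and SMAD7 were called in KO, all higher, with none lower. Of all genes tested, 44.9% were called in WT (15.1% higher, 29.8% lower) and 48.8% in KO (16.0% higher, 32.8% lower). From 0 to 48 h 4 of 6 were called in WT and 3 of 6 in KO, all higher. Of all genes tested, 12.8% were called in WT over that time (6.52% higher, 6.30% lower) and 13.3% in KO (5.90% higher, 7.42% lower). From 12 to 48 h INHBA, TGFBR2 and SMAD3 rose and FST fell in each line, 4 of 7 members. This count, and the count between the lines at 12 h, include INHBA, whose 12 h libraries took part in its choice. Of all genes tested, 35.9% were called in WT over that time (24.6% higher, 11.3% lower) and 41.7% in KO (27.7% higher, 14.0% lower). For the genotype by interferon interaction, 0 of the 6 members other than INHBA were called at 12 or at 48 h (limma; 1 at each time at an unadjusted p under 0.05), against 0.0753% of all genes at 12 h, all higher, and 0.0828% at 48 h (0.0678% higher and 0.0151% lower). The comparisons against 0 h of a line share their untreated libraries.

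The rest of the pathway was examined in lists of 88 other genes, of which 66 have a row and 63 were tested. The lists were made with earlier results of these data known. Between the lines, 9 of 63 (14.3%) were called at 0 h, with 8 of them lower in KO. The 7 genes (11.1%) called at 12 h comprised 6 with lower and 1 with higher levels in KO, and so did the 7 called at 48 h. Of all genes tested, 4.89% were called at 0 h, 3.62% at 12 h and 4.19% at 48 h. With median-of-ratios scaling 10 of the 63 were called at 0 h, all lower, while over all genes 275 were higher and 309 lower. The median difference over the 63 was -0.05, -0.04 and 0.01. The called genes lay among the listed targets and the genes of latency and activation. Of the 31 tested ligands, receptors, extracellular and intracellular inhibitors, SMAD transducers and repressed targets, 0 were called at any of the 3 times (limma; 5, 5 and 3 at an unadjusted p under 0.05). The share of all genes at an unadjusted p under 0.05 is not reported for any comparison here. At the adjusted shares over all genes, few of any 31 genes would be called, so the 0 does not set these genes apart. One of them, GDF15, missed the threshold at 12 h (-0.65, limma, adjusted p 0.0577) and passed it with a pseudocount of 0.1 (-0.81, adjusted p 0.0299), with median-of-ratios scaling (-0.66, 0.0477) and in the fit on the libraries of that time (-0.65, 0.0287).

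Of the 22 tested genes listed as induced by TGF-beta, KO cells before treatment had 7 at lower and 1 at higher levels (36.4% called, against 4.89% of all genes), 5 were lower at 12 h (22.7%, against 3.62%), and 6 were lower and 1 higher at 48 h (31.8%, against 4.19%). With median-of-ratios scaling 9 of the 22 were lower and none higher at 0 h, while over all genes 275 were higher and 309 lower. The 22 genes were listed with earlier results of the data known, so the shares are not independent of the data. MMP2, TGFBI and TGM2 were lower at all 3 times under every alternative setting that tested them. MMP2, a matrix metalloproteinase, was at 16.39, 18.1 and 17.28 RPKM in untreated WT and 7.84, 6.18 and 6.92 RPKM in untreated KO. Its differences were -1.20 at 0 h (limma, adjusted p 2.10e-05) and -0.86 at 48 h (adjusted p 0.000653). At 12 h it was 11.7 ± 1.02 in WT and 5.44 ± 1.34 RPKM in KO (SD, n = 3; limma, adjusted p 0.000202), and the groups did not overlap at any time.

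TGFBI, a secreted matrix protein named for its induction by TGF-beta, was at 308.76, 334.67 and 318.1 RPKM in untreated WT and 241.41, 224.09 and 233.8 RPKM in untreated KO. It was lower by -0.46, -0.48 and -0.53 at the 3 times (limma, adjusted p 0.000193, 0.000178 and 5.28e-05). TGM2, tissue transglutaminase, was at 1.51, 1.89 and 1.34 RPKM in untreated WT and 0.65, 0.25 and 0.38 RPKM in untreated KO, with differences of -0.86, -1.37 and -1.57 (adjusted p 0.000605, 6.02e-06 and 1.40e-06). With a pseudocount of 0.1 the TGM2 differences were as large as -1.73 at 0 h and -2.83 at 48 h.

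Fibronectin (FN1) was lower in KO at 0 h (-0.46; 388 ± 39.9 against 280 ± 14.1 RPKM, SD, n = 3; limma, adjusted p 0.000886), as was SNAI2, a transcription factor of epithelial plasticity (-0.26, adjusted p 0.00467). At 12 h the cell cycle inhibitor CDKN1A (-0.36, adjusted p 0.000168) and the membrane metalloproteinase MMP14 (-0.32, adjusted p 0.000445), which can release latent TGF-beta, were lower. At 48 h ITGA5, the fibronectin receptor's alpha chain, was higher in KO (0.30, adjusted p 0.00740). These 5 calls held under every alternative that was run.

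The remaining calls between the lines were lost without single libraries or in another fit, while the differences kept their sign and most of their size. FN1 at 12 h was -0.33 to -0.24 in those settings, MMP14 at 0 h -0.20 to -0.14, CDKN1A at 0 h -0.19 to -0.13, PTHLH at 0 h -0.35 to -0.26, ITGA5 at 0 h 0.18 to 0.25, and ITGB8 at 12 h 0.32. The following values are limma's adjusted p without the named library. For FN1 at 12 h (-0.32, adjusted p 0.0180) it was 0.0606, 0.0551 and 0.0506 without WT replicates 1, 2 and 3 and 0.0809 without KO replicate 2. For MMP14 at 0 h (-0.19, adjusted p 0.0222) it was 0.118 and 0.0608 without WT replicates 2 and 3, and 0.0507 and 0.111 without KO replicates 1 and 2. CDKN1A at 0 h (-0.18, adjusted p 0.0339) gave 0.130, 0.0716 and 0.0631 without WT replicates 1, 2 and 3 and 0.166 without KO replicate 2. CDKN1A at 48 h (-0.22, adjusted p 0.00924) gave 0.0527 without WT replicate 3, and SNAI2 at 48 h (-0.23, adjusted p 0.0104) gave 0.0543 without WT replicate 1.

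PTHLH, parathyroid hormone-like hormone, was lower at 0 h (-0.33, limma, adjusted p 0.0422), with 0.160 and 0.158 without WT replicates 2 and 3 and 0.180 and 0.0899 without KO replicates 1 and 2. ITGA5 was higher at 0 h (0.23, adjusted p 0.0425), with 0.140, 0.113 and 0.0677 without WT replicates 1, 2 and 3 and 0.125 and 0.135 without KO replicates 2 and 3; with median-of-ratios scaling it was 0.0755. ITGB8, whose integrin activates latent TGF-beta, was higher at 12 h (0.32, adjusted p 0.00751), and its adjusted p was 0.130 in a fit on the 6 libraries of that time.

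**Figure D4:**
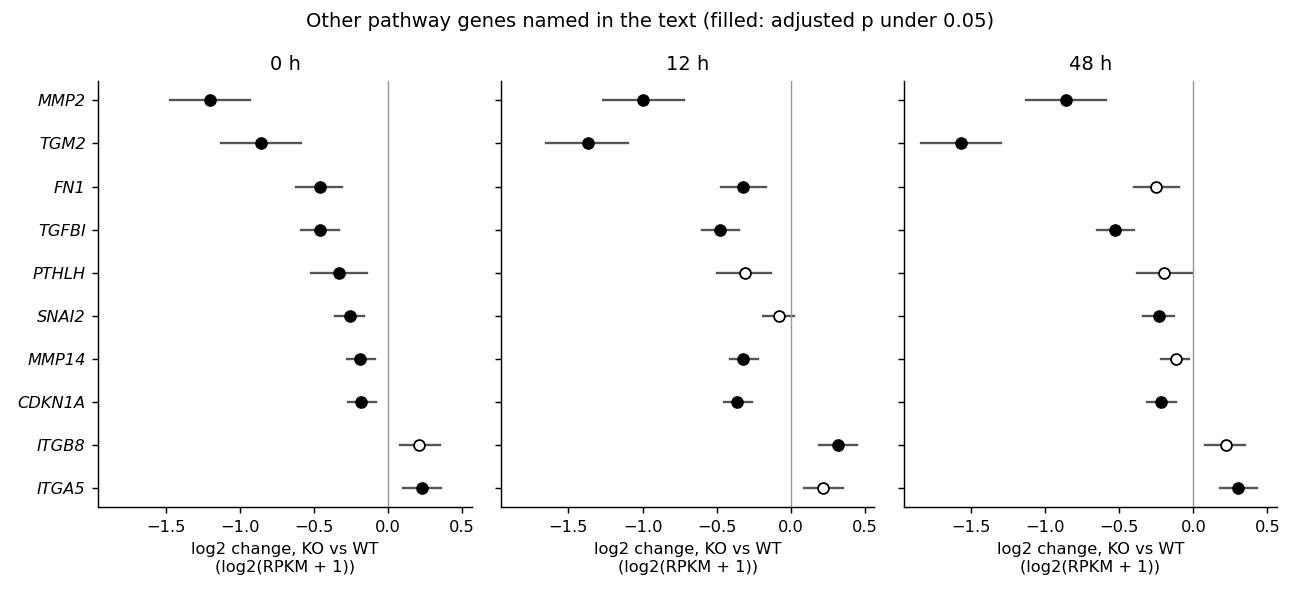
Difference between KO and WT (x axis, log2(RPKM + 1)) at 0, 12 and 48 h for the other pathway genes named as called at any time; points are estimates, lines 95% intervals, and filled points pass an adjusted p of 0.05. MMP2, TGM2 and TGFBI are filled at all 3 times, and ITGB8 and ITGA5 are the 2 genes above 0.

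Several of these targets are also expressed by fibroblasts, so fibroblast markers were set beside them. Of the 11 listed, 4 have a row (COL1A1, PDGFRB, FAP and VIM); 7 were not analysed here. Their summed level was 383 to 397 RPKM in untreated WT and 261 to 266 RPKM in untreated KO, 318 to 323 and 228 to 244 RPKM at 12 h, and 279 to 304 and 194 to 202 RPKM at 48 h. Nearly all of it was vimentin (VIM), which was lower in KO by -0.59, -0.46 and -0.57 (limma, adjusted p 2.91e-08, 6.24e-07 and 4.95e-08). PDGFRB, a defining fibroblast receptor, was below 1 RPKM in every library. FAP, a fibroblast surface protease, did not follow VIM between the lines. At 0 h FAP was at 5.74 ± 0.889 RPKM in WT and 5.98 ± 0.763 RPKM in KO (SD, n = 3). Its means in WT and KO were 4.78 and 4.54 RPKM at 12 h, and 4.23 and 4.39 RPKM at 48 h. In both lines the means of FAP and of VIM were lower at 12 and 48 h than at 0 h. COL1A1 averaged 1.67 RPKM in WT and 1.48 RPKM in KO at 0 h, 1.95 and 2.6 RPKM at 12 h, and 1.7 and 2.0 RPKM at 48 h, with no call between the lines. In RNA of whole cultures, fewer cells of a type and less RNA per cell cannot be told apart, and the part of other cells or of mouse reads in these differences was not tested.

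At 12 h of interferon genes of the lists were called in both directions. More of them were higher than lower, whereas over all genes tested more were lower on the values as deposited. In WT 20 of 63 were higher and 15 lower (55.6% called). Of all genes 44.9% were called in WT, 15.1% higher and 29.8% lower. In KO 19 were higher and 16 lower (55.6%), against 48.8% of all genes, 16.0% higher and 32.8% lower. With median-of-ratios scaling WT had 24 higher and 9 lower, and KO had 24 higher and 8 lower. Over all genes that scaling gave 2895 higher and 2712 lower in WT and 3156 and 3040 in KO, so more were higher there too. The median change over all genes tested went from -0.085 to -0.002 in WT, while the KO median of -0.095 became 0. Against 0 h, 12 of the 63 were called at 48 h in WT (5 up and 7 down; 19.0%, against 12.8% of all genes), and KO had 5 in each direction (15.9%, against 13.3%). None of the 63 was called for the interaction at 12 or 48 h (limma; 7 and 5 at an unadjusted p under 0.05), against 0.0753% and 0.0828% of all genes.

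TAGLN, the actin-binding protein transgelin, rose most among the induced targets, from 8.81, 11.15 and 10.64 RPKM to 29.46, 29.95 and 31.35 RPKM at 12 h in WT. In KO it rose from 9.62, 7.82 and 9.41 RPKM to 30.8, 31.27 and 39.11 RPKM. The changes were 1.49 in WT (limma, adjusted p 7.51e-09) and 1.80 in KO (adjusted p 5.64e-10), and by 48 h the level was 7.27 ± 0.497 and 8.03 ± 0.483 RPKM (SD, n = 3). THBS1, thrombospondin 1, which can activate latent TGF-beta, rose and stayed high. It was at 128 ± 7.68, 250 ± 3.62 and 273 ± 22.9 RPKM at 0, 12 and 48 h in WT and at 120 ± 5.63, 282 ± 10.3 and 289 ± 3.78 RPKM in KO, with changes at 48 h of 1.08 (adjusted p 2.25e-10) and 1.26 (adjusted p 2.68e-11).

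The 4 genes listed as repressed by TGF-beta, which include the ID genes that BMP signals induce, were all higher at 12 h in WT. ID2 rose by 1.39 in WT (limma, adjusted p 0.000423) and 1.34 in KO (adjusted p 0.000486) from a level near 1 RPKM, and ID3 by 0.70 (adjusted p 2.33e-06) and 0.60 (adjusted p 9.55e-06). ID1 rose in WT (0.65, adjusted p 0.000427), and in KO its change was 0.27 (adjusted p 0.0825). The KO value rested on the untreated replicate 3, at 64.93 RPKM against 44.63 and 44.36 RPKM in the others: without it the change was 0.44 (limma, adjusted p 0.00143), and with median-of-ratios scaling it was 0.37 (adjusted p 0.0208). None of the 4 was called at 48 h against 0 h in either line (limma; 0 in WT and 1 in KO at an unadjusted p under 0.05). FSTL3, an activin inhibitor related to FST, rose at 12 h by 0.52 in WT (adjusted p 2.94e-06) and 0.48 in KO (adjusted p 5.60e-06).

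Among genes that fell at 12 h, CCN1, a secreted matricellular protein, changed by -1.01 in WT (limma, adjusted p 3.61e-08) and -0.78 in KO (adjusted p 5.95e-07). GDF15, a distant TGF-beta relative, changed by -0.90 (adjusted p 0.000706) and -1.23 (adjusted p 3.75e-05), and LTBP2, a latent TGF-beta binding protein, by -0.68 (adjusted p 2.93e-05) and -0.89 (adjusted p 1.51e-06). At 48 h ITGAV, the alpha chain of the integrins that activate latent TGF-beta, was lower than at 0 h by -0.50 in WT (adjusted p 1.17e-05) and -0.55 in KO (adjusted p 4.55e-06). FSTL3 was higher at 48 h than at 0 h within each line, by 0.29 in WT (adjusted p 0.00320) and 0.30 in KO (adjusted p 0.00211).

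Further calls at 48 h included TGM2, MMP2 and LTBP2. TGM2 was higher than at 0 h by 0.62 in WT (limma, adjusted p 0.00375) and changed by -0.09 in KO (adjusted p 0.724), with an interaction of -0.71 (SE 0.181, adjusted p 0.392) that did not pass. MMP2 was lower in WT by -0.52 (adjusted p 0.0131), a call lost without WT replicate 2 at 0 h (0.0516) or WT replicate 1 at 48 h (0.0573). LTBP2 was lower than at 0 h in both lines, by -0.30 in WT (adjusted p 0.0472) and -0.38 in KO (adjusted p 0.0140). The KO call was lost without KO replicate 3 at 0 h (-0.30, adjusted p 0.0644), and the WT call without any single one of its 6 libraries (-0.32 to -0.28, adjusted p 0.0778 to 0.130).

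**Figure D5:**
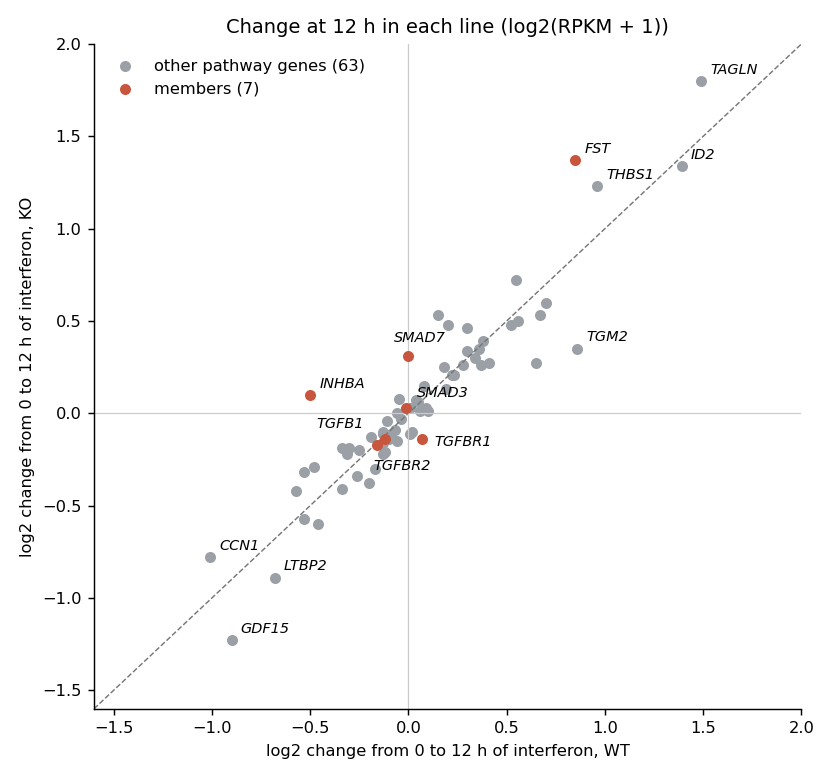
Change from 0 to 12 h of interferon (log2(RPKM + 1)) in WT (x axis) and KO (y axis) for the 7 members and the 63 other tested pathway genes; the dashed line marks equal change. TAGLN (1.49 and 1.80) and FST (0.85 and 1.37) lie high in both lines, and INHBA (-0.50 and 0.10) lies above the line.

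The genes outside the lists whose levels followed INHBA most closely over the 18 libraries, by Pearson correlation of log2(RPKM + 1), were NR1D1 (0.905), AMOTL2 (0.876), BTG3 (0.869), FOXRED2 (0.863) and ZFP36L2 (0.859). The 18 libraries share the 2 lines and 3 times, so these values describe a common pattern over 6 groups. NR1D1, a nuclear receptor of the circadian clock, was at 4.2, 4.03 and 4.4 RPKM in untreated WT and 3.47, 3.01 and 3.63 RPKM in untreated KO, and at 5.85 to 6.18 and 5.47 to 5.92 RPKM at 48 h. Within the pathway SMAD3 (0.888) and TGFBR2 (0.822) were closest to INHBA, and FST (-0.025) showed no common course over all libraries.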

How the data were processed

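RNA of WT and SP100 KO NIKS cells was sequenced from stranded mRNA libraries, per the labels' protocols. The authors deposited RPKM values with 2 decimals for 16472 genes and 18 libraries. Per the submitters' processing notes, cutadapt, STAR 2.6.1, RSEM 1.3.0, limma 3.50.3 and build hg19 were named with no role; the annotation, the gene filter and the treatment of mouse reads are not given in the sources used here. Symbols were found for 15666 gene IDs. Total reads are unknown, so no counting interval was computed; relative depth was recovered from 528 low genes, with 97.4% of library pairs within 3% of the fitted depths. Because RPKM values are not counts, log2(RPKM + 1) was tested with limma 3.58.1 (R 4.3.3) on genes with at least 1 RPKM in at least 3 libraries, in a cell-means model of all 18 libraries with a mean trend of the variances. Benjamini-Hochberg adjustment covered the 13280 genes of each comparison, and the threshold was 0.05. The labels call the replicates biological without saying how they were separated, so p-values measure the spread between these libraries. The members and gene lists were chosen with earlier results of these data known. Named were SP100, all members, every listed gene called between the lines (except 1 that enters the counts and is not reported here by name), the 2 listed genes in each direction with the largest change at 12 and 48 h in each line, and the 5 unlisted genes most correlated with INHBA; VIM, SUGCT, ID1 and ID3 were named after their values were seen. Alternatives were a pseudocount of 0.1, no filter, a mean of at least 5 RPKM, median-of-ratios scaling, the comparison's libraries alone, no mean trend, a replicate block and leaving out each library.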

Additional observations from a re-analysis of the deposited data

Results flagged for a closer look

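The change of INHBA from 0 to 12 h of interferon differed between the lines by 0.59 (KO minus WT, log2(RPKM + 1)), with changes of -0.50 in WT and 0.10 in KO. INHBA was chosen with this difference known, so no test is given. Over 19 alternative settings the difference was 0.53 to 0.66. The difference follows from the untreated libraries, where KO was at 6.96 to 7.99 and WT at 11.07 to 13.19 RPKM, while at 12 h the lines held 7.71 to 8.47 and 7.56 to 9.12 RPKM.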

How the results depend on the processing

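Of 98 counts of called members or pathway genes under the alternatives that keep all replicates, 96 stayed within 1.5 times. The exceptions were members called from 0 to 12 h in WT, 1 in place of 2 with median-of-ratios scaling, and members called between the untreated lines, 0 in place of 1 with the libraries of the comparison alone. With 1 library left out, members called were 0 to 1 between the untreated lines, and 2 to 3 from 0 to 48 h in WT in place of 4; other pathway genes called between the untreated lines were 5 to 9. Of the single members' differences between KO and WT, 6 of 126 changed sign without a library, none of them a call: SMAD7 at 12 h gave -0.05 and -0.01 without WT replicates 1 and 2 and -0.07 without KO replicate 1 (range -0.07 to 0.20), INHBA at 12 h gave 0.01 without WT replicate 3 (range -0.11 to 0.01), and TGFBR2 without KO replicate 2 gave 0.00 at 12 h (range -0.06 to 0.00) and 0.01 at 48 h (range -0.03 to 0.01). A mean of at least 5 RPKM left out SMAD7 and TGM2. The replicate numbers did not pair the libraries: deviations of same-numbered libraries correlated at -0.10 to 0.16 (median -0.01 over 45 pairs), and 2 of 18 libraries correlated best with their own number. With the replicate block the 0 h calls of CDKN1A and PTHLH and the 48 h call of TGFBR1 in WT were lost; 7 other pathway genes were called between the untreated lines in place of 9, 7 at 12 h and 7 at 48 h, and 1, 0 and 0 members. Low levels limit SMAD7, TGM2 and ID2, whose errors were wide. Errors reflect 3 libraries a group.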

Other observations

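INHBA lies on chromosome 7. The median difference between untreated KO and WT was 0.097 over 570 tested genes of that chromosome against 0.020 over all genes tested. Of the 570, 51 were called higher and 8 lower (limma). Of all 13280 genes tested, 375 (2.82%) were called higher and 275 (2.07%) lower. Of the 3 nearest tested genes on either side of INHBA in the RefSeq gene order, SUGCT, a coenzyme A transferase gene and its nearest tested neighbour on one side, was also lower in KO. It was at 117.67, 105.83 and 121.5 RPKM in untreated WT and 75.57, 74.5 and 72.85 RPKM in untreated KO, with differences of -0.62, -0.71 and -0.80 at 0, 12 and 48 h (limma, adjusted p 3.72e-06, 1.06e-06 and 2.22e-07). CDK13 (0.04), MPLKIP (0.12), GLI3 (-0.06), C7orf25 (0.22) and PSMA2 (0.16) were not called at 0 h. SUGCT was named after its values were seen, and it was called lower in KO at all 3 times. INHBA was not called at 12 h, where the lines overlapped. Nor was it called at 48 h, where KO was at 12.28 to 13.57 and WT at 15.2 to 15.5 RPKM. Whether the 2 genes share a cause was not tested.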
